A study of Homo sapiens with 18 samples.

Results

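The histone genes are a set of core and linker histone genes on the array, chosen by name. Every probe was taken whose accession led to a protein-coding gene named H1- with a number, H2AC, H2BC, H3C or H4C with a number, or with an older name beginning HIST1H to HIST4H. There were 70 such genes, carried by 81 probes, among 19720 named genes and 42327 usable probes. By class they were 10 linker (H1) genes, 15 H2A, 18 H2B, 13 H3 and 14 H4 genes. A probe was tested where it lay well above background on every array of at least 1 group, and a gene was read from its brightest probe. By this filter 67 genes were tested, and H1-6, H1-8 and H4C7 were not. RefSeq lists 5 more genes under the same rule that no probe led to, H3-7, H4C14, H3C14, H2AC18 and H2AC11.

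The cells were the EpCAM+ fraction, sorted by the epithelial surface protein EpCAM, of the hepatocellular carcinoma lines Huh1 and Huh7. EpCAM+ cells of each line were treated for 48 h with DSF (disulfiram, an inhibitor of aldehyde dehydrogenases) at 0.1 µM or with 5-FU (5-fluorouracil, which blocks thymidylate synthase and enters RNA) at 1 µM. Others served as control, for which no time is given, and 3 one-color arrays were run per group, 18 in all. In the methods DSF is written with CuCl2, a copper salt, and nothing is said of what was added to the control, so that DSF and copper cannot be told apart. Both lines are established cell lines, and the sorted fraction, not the whole culture, was measured. The hepatocellular markers EPCAM, ALB, AFP, GPC3, TTR, APOA1, HNF4A and KRT18 lay well above background on 18 of 18 arrays. In Huh1 their summed level ran from 9.49 to 9.62 on the log2 scale in control, from 9.19 to 9.29 after DSF and from 9.29 to 9.49 after 5-FU. Of the 8, 7 were called lower (20.3% of all tested probes) and 0 higher (23.9%) after DSF. After 5-FU 2 were lower (26%) and 2 higher (22.2%). In Huh7 it ran from 10.04 to 10.07 in control, 9.89 to 10.06 after DSF and 10.08 to 10.28 after 5-FU. There 5 of the 8 were called lower (19.4% of all tested probes) and 1 higher (27.3%) after DSF. After 5-FU 3 were lower (29.7%) and 3 higher (27.3%). Of markers of blood, fibroblast and endothelial cells, HBB lay above background on 0 arrays and COL1A2 on 2, while PTPRC, PECAM1 and CDH5 did so on 18. The summed endothelial markers lay between -0.99 and -0.69 in Huh1 control, -1.27 and -1.23 after DSF, and -1.47 and -0.75 after 5-FU. In Huh7 they lay between -2.0 and -1.87 in control, -1.83 and -1.67 after DSF, and -1.25 and -1.03 after 5-FU, so that the treated arrays lay above control. The summed fibroblast markers of Huh7 went from between -3.73 and -3.51 in control to between -4.84 and -4.38 after DSF and between -2.95 and -2.59 after 5-FU, while in Huh1 they lay between -6.56 and -3.89 over all groups. The part of these markers in the results was not tested.

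Replication-dependent histone genes supply the H2A, H2B, H3 and H4 that wrap new DNA, and the H1 that sits on the linker between nucleosomes. They lie in clusters, lack introns, and their mRNAs normally end in a stem-loop bound by SLBP in place of a poly(A) tail, so that the mRNA rises and is destroyed with S phase. Transcription is driven by NPAT, and 3′ processing needs the U7 particle with LSM10, LSM11 and ZNF473. Some of these genes can also give polyadenylated mRNA, most of all in cells leaving the cycle. The way the array target was primed is not given in the sources used here, so a change in transcript amount and a change in the share of tailed transcripts cannot be told apart. Fewer cells in S phase and less histone mRNA per cell in S phase cannot be told apart in such bulk samples either. Most members of a core histone class are near-identical in their coding part, so a probe can take up signal from its paralogs.

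Many H2A and H2B genes are arranged head to head, with a shared stretch of DNA between both start sites. RefSeq sequence (GRCh38.p14) upstream of the start sites was matched for 64 of the 70 genes, and 250 bases per gene were searched on both strands for the octamer ATTTGCAT, the CCAAT letters and the TATA letters TATAAA; none of these motifs holds another. The octamer was found in 77.8% of the 18 H2B windows and in 71.4% of the 14 H2A windows, in 1 of 11 H3 windows, and in 0 of 12 H4 and 0 of 9 H1 windows, against 1.63% of 35116 promoters. CCAAT was found in every H2A, H2B and H3 window, in 3 of 12 H4 windows and in 8 of 9 H1 windows (32% of all promoters), and TATAAA in 64.1% of the histone windows (3763 of all 35116). Head-to-head genes share most of their window, so these windows are not independent. Windows of 5 promoter regions on chromosome 6 are shown because the results below turn on these genes: a head-to-head pair whose members moved apart after DSF, a pair that moved together, an H4 gene that was lower, and the linker genes that rose and fell. Capitals mark the octamer, CCAAT and TATAAA on either strand, and each pair is given on the plus strand from start site to start site.
H2AC7 to H2BC7, chr6:26199294-26199515, plus strand: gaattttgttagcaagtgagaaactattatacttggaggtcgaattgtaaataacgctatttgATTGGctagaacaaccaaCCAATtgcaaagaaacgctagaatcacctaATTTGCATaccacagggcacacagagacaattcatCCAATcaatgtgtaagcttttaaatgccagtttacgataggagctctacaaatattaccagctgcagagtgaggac
H2BC8 to H2AC8, chr6:26216689-26216920, plus strand: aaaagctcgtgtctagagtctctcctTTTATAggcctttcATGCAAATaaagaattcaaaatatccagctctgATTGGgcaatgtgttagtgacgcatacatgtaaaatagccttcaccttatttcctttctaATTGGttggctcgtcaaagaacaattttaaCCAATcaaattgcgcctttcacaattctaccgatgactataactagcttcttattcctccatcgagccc
H4C5, chr6:26204360-26204609, plus strand: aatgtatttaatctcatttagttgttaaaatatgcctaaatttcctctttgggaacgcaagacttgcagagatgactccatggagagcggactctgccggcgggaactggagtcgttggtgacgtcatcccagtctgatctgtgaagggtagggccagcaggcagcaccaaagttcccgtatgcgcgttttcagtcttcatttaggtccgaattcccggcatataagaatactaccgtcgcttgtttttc
H1-2, chr6:26056471-26056720, minus strand: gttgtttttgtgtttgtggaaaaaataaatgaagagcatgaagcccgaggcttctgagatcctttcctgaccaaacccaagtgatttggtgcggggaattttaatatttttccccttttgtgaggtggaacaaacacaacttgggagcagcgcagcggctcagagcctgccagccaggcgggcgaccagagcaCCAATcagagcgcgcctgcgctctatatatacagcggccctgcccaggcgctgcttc
H1-5, chr6:27867589-27867838, minus strand: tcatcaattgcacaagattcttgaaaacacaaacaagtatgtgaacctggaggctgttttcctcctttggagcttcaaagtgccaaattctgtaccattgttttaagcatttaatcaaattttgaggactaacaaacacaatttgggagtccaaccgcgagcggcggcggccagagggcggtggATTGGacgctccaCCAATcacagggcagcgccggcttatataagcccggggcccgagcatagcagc

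Values below are log2 of the deposited spot signal minus the log2 75th percentile of the same array, so that a value of 0 lies at the upper quartile of the array and a difference of 1 is a doubling relative to it. Differences come from a single limma fit of 18 arrays and are called at a Benjamini-Hochberg adjusted p under 0.05 over 29894 tested probes. A level is set only against the same probe in other groups. With 3 arrays against 3 an exact permutation test cannot give a p below 0.1, so that the calls rest on the spread that limma shares over all groups.

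DSF split the histone genes of Huh1 by class. Of 67 tested genes 29 were called higher (23.9% of all tested probes) and 27 lower (20.3%), 11 were not called, and the median difference was -0.17, against 0.0023 over all tested probes. Of 18 H2B genes 15 were higher and 2 lower, with a median of 0.59. Of 15 H2A genes 8 were higher and 5 lower, with a median of 0.43. No H4 gene was higher, 8 of 13 were lower, and the median was -0.42. Of 13 H3 genes 8 were lower and 3 higher, with a median of -0.38, and of 8 H1 genes 3 were higher and 4 lower. Scaled on 7 spike-in probes in place of the 75th percentile, the H2B, H2A, H3 and H4 medians were 0.73, 0.57, -0.24 and -0.29, with the same signs, and 13 histone genes instead of 27 were called lower. That scale moved the median of all tested probes to 0.14 in Huh1 and -0.09 in Huh7. It also parted the Huh1 DSF arrays by slide: relative to the spike-ins their 75th percentile read -3.23 and -3.19 on the main slide and -2.94 off it. Whether the lost calls follow the scale or the slide was not tested. The number of H4 genes called lower was 12 with array-median scaling, 2 on the spike-in scale, 6 with the slide as a block and 4 with only the arrays of the main slide, where the H4 median was -0.40.

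In Huh7 the changes after DSF were smaller. There 14 of 67 genes were called higher (27.3% of all tested probes) and 10 lower (19.4%), with a median difference of -0.08, against 0.08 over all tested probes. Of 18 H2B genes 7 were higher and 1 lower, with a median of 0.14 that became -0.04 on the spike-in scale, and of 13 H4 genes 0 were higher and 3 lower, with a median of -0.21. H2A had 3 higher and 3 lower of 15, H3 3 higher and 0 lower of 13, and H1 1 higher and 3 lower of 8. On the spike-in scale 0 H2B and 0 H3 genes were called higher in Huh7, and 2 histone genes in all. Of the 3 Huh7 DSF arrays 2 had a slide to themselves, with a separate scan day. The spike-in scale parted them from the third: relative to the spike-ins their 75th percentile read -3.48 and -3.48, against -3.13 on the main slide. Whether the calls lost on the spike-in scale follow the scale or the slide was not tested. With the slide as a block 9 genes were higher and 2 lower, and with the single DSF array of the main slide 6 were higher and 0 lower. The class medians with the block were 0.13 for H2B, -0.09 for H2A, -0.09 for H3, -0.27 for H4 and -0.20 for H1, against 0.14, -0.02, -0.07, -0.21 and -0.18 without it.

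**Figure D1:**
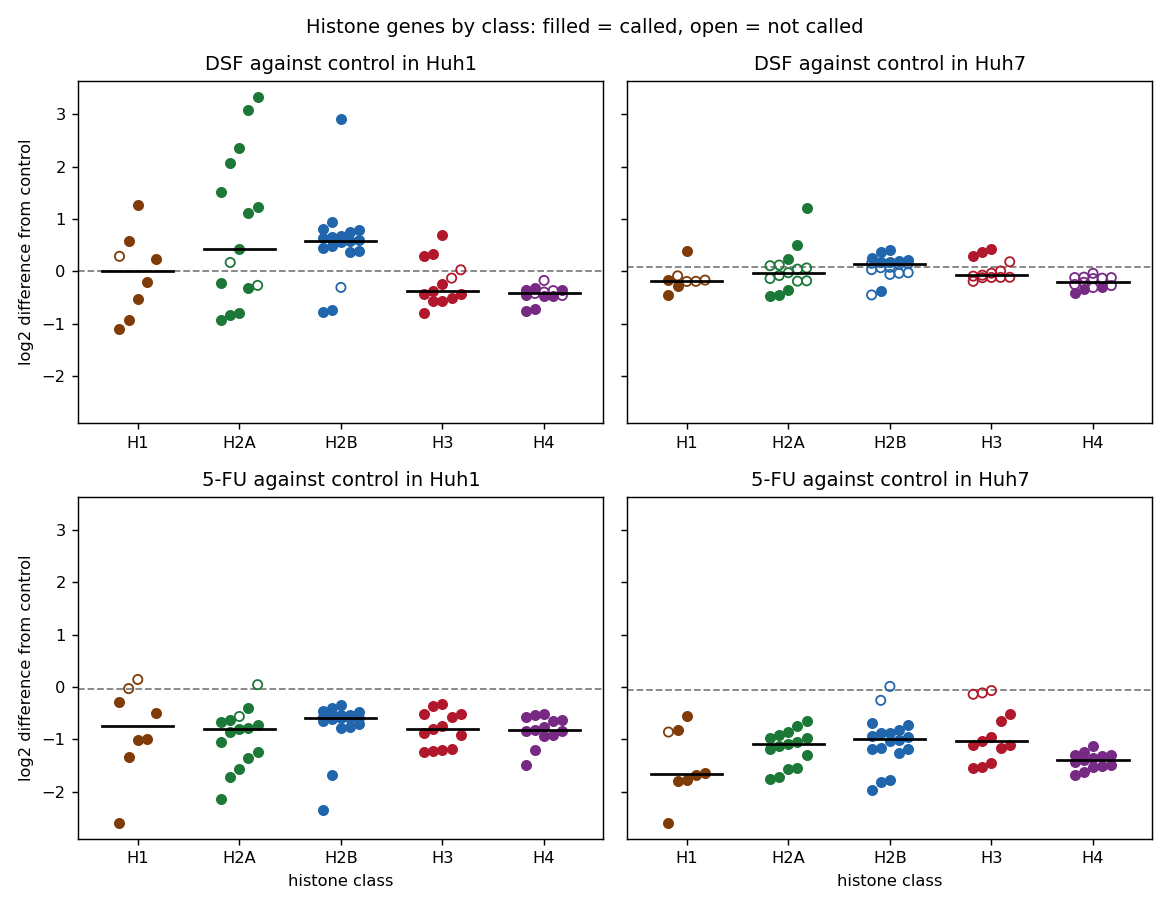
Log2 difference from control (vertical axis) of each tested histone gene by class (horizontal axis), for each drug and line, on the 75th percentile scale. Points are genes, filled where called at an adjusted p under 0.05 and open where not; the black bar is the class median and the dashed line the median over all tested probes. After DSF in Huh1 the H2B median was 0.59 and the H4 median -0.42, while after 5-FU every class median lay below the dashed line in both lines.

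Read from the brightest probe of each gene, an H2A gene, H2AC19, had the largest rise after DSF in each line. Dimmer second probes of H2BC18 and H2BC21, given below, were at least 2.47-fold and 5.43-fold higher in Huh7. In Huh1 the second H2BC18 probe had a fitted difference of 3.38, and the brightest probe of H2BC1 one of 2.91, both from controls not well above background. H2AC19, which encodes a common H2A and has a near-identical copy in H2AC18, read 0.55, 0.29 and 0.17 on the Huh1 control arrays and 3.72, 3.64 and 3.67 on the DSF arrays. The groups did not overlap, and the difference was 3.34 ± 0.09 (SE), a 10.1-fold rise (adjusted p = 4.4e-12). The Huh7 arrays read -1.17, -1.14 and -1.10 in control and 0.02, 0.11 and 0.08 after DSF, a rise of 1.21 ± 0.09 (adjusted p = 2.0e-07) that was 1.16 with the slide as a block. The rise was smaller in Huh7 than in Huh1 by a difference of -2.14 ± 0.13 (adjusted p = 5.8e-08).

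H2AC7, an H2A gene of cluster 1, read 3.39, 3.28 and 3.19 in Huh1 control and 5.69, 5.61 and 5.64 after DSF, a rise of 2.36 ± 0.07 or 5.14-fold (adjusted p = 1.0e-11). The Huh7 readings were 2.67, 2.64 and 2.72 in control and 3.06, 3.22 and 3.26 after DSF, a rise of 0.51 ± 0.07 (adjusted p = 4.6e-05). All DSF arrays lay above all control arrays in both lines. Its head-to-head partner H2BC7, whose start site lies at the other end of the first sequence above, went the other way. H2BC7 read -0.18, -0.11 and -0.11 in Huh1 control and -0.81, -1.0 and -0.88 after DSF, a fall of 0.77 on the log2 scale (adjusted p = 3.5e-05). In Huh7 the H2BC7 difference was -0.38 ± 0.10 (adjusted p = 0.0078), and with the slide as a block it was -0.38 as well (adjusted p = 0.095).

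Of 12 head-to-head pairs, with start sites 194 to 979 bases apart, both members were measured in 11. After DSF in Huh1 both members were called in the same direction in 5 pairs and in opposite directions in 4, and after DSF in Huh7 in 0 and 2 pairs. After 5-FU 63 (Huh1) and 61 (Huh7) of all 67 histone genes were called lower and 0 higher on the 75th percentile scale. Opposite calls in a pair could thus not occur, and most pairs would be lower together whatever their arrangement. Both members were called lower in 10 of 11 pairs in each line. That count depended on the scale: with spike-in scaling 0 pairs were called lower together after 5-FU and 1 in each line was called in opposite directions, H2AC7 with H2BC7 (Huh1) and H2AC1 with H2BC1 (Huh7), of which H2BC1 was not well above background in either group. On the same scale, after DSF in Huh1 5 pairs were called higher together and 3 in opposite directions. The pair of the second sequence moved together in Huh1: H2BC8 rose by 0.95 and H2AC8 by 1.52 after DSF. Besides H2AC7 and H2BC7, the pairs called in opposite directions in Huh1 were H2AC13 (-0.84) with H2BC13 (0.68), H2AC14 (-0.32) with H2BC14 (0.55), and H3C7 (-0.57) with H2BC9 (0.65). Apart from pairing, the H2A and H2B genes were split by the octamer, which 24 had in their window and 8 lacked. With DSF in Huh1, 17 of the 24 genes with the octamer were called higher and 5 lower. Of the 8 genes lacking the octamer, 6 were higher and 1 lower.

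**Figure D2:**
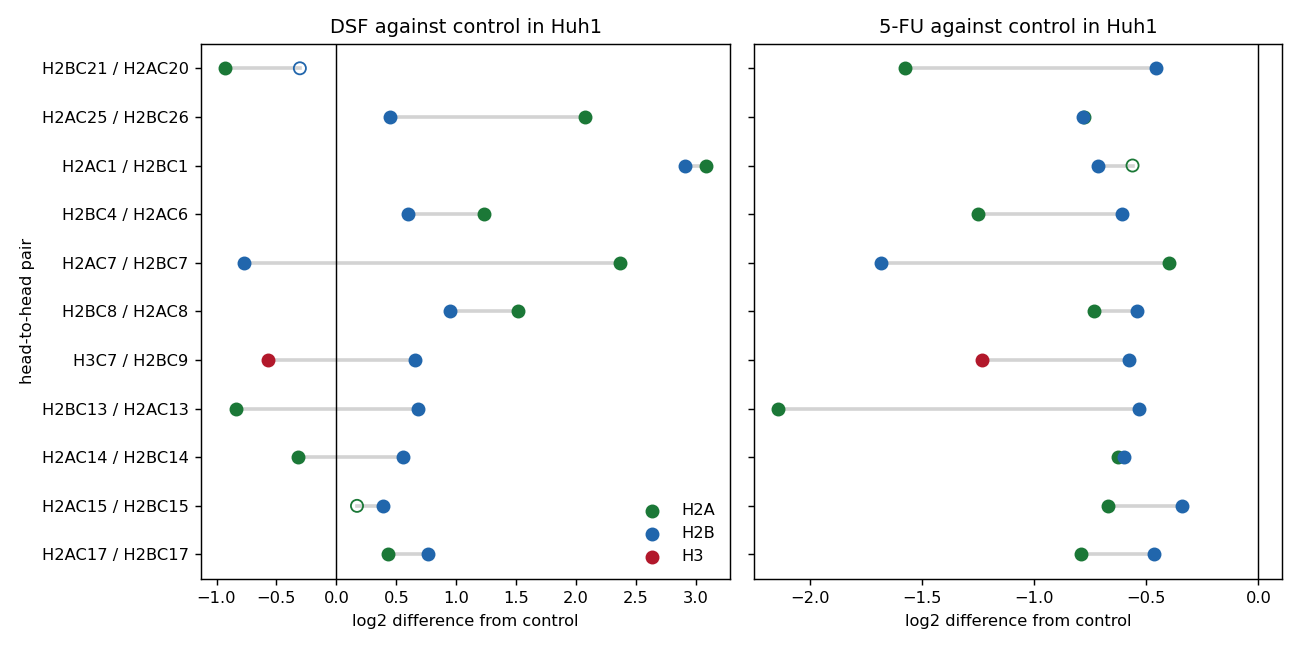
Log2 difference from control in Huh1 (horizontal axis) of both members of 11 head-to-head pairs (vertical axis), after DSF and after 5-FU, on the 75th percentile scale. Points are coloured by class, filled where called and open where not. After DSF the members of 4 pairs were called on opposite sides of 0, with H2AC7 at 2.36 and H2BC7 at -0.77; after 5-FU no member was called higher.

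Other H2A genes of Huh1 rose after DSF from low or moderate signal. H2AC1, known mainly from testis, read -4.48, -4.23 and -4.54 in control and -1.25, -1.33 and -1.42 after DSF, a rise of 3.08 ± 0.30 (adjusted p = 2.0e-06). Its head-to-head partner H2BC1, also known from testis, was not well above background on any Huh1 control array and was so on all 3 DSF arrays, at least 3.51-fold higher (adjusted p = 3.8e-08). H2AC25, an H2A gene of cluster 3, was likewise at least 2.51-fold higher (adjusted p = 5.0e-07). Both bounds set the mean of the bright group against the higher of the array's lowest signal well above background and the probe's own signal on each dim array. In Huh7 the differences after DSF were 0.04 for H2AC1 (adjusted p = 0.92) and 0.12 for H2AC25, neither called, and H2BC1 was not well above background in either group.

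H2AC8 read 1.72, 1.72 and 1.65 in Huh1 control and 3.18, 3.28 and 3.19 after DSF, and rose by 1.52 ± 0.07 there and by 0.24 ± 0.07 in Huh7 (adjusted p = 7.5e-10 and 0.010), the latter 0.18 once the slide was a block (adjusted p = 0.20). H2AC6, which gives a widely expressed H2A, rose by 1.23 ± 0.09 in Huh1 (adjusted p = 1.2e-07), and its Huh7 difference was -0.02. A second H2AC6 probe read 0.21 in Huh1 and was not called. H2AC20 and H2AC4 fell in both lines. H2AC20 read 3.49, 3.41 and 3.41 in Huh1 control and 2.56, 2.49 and 2.5 after DSF, a difference of -0.93, and -0.45 in Huh7. H2AC4 differed by -0.79 in Huh1 and -0.35 in Huh7. Blocked by slide, the Huh7 differences of these genes were -0.38 and -0.23 and not called (adjusted p = 0.10 and 0.12).

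Among H2B genes, H2BC12 read 4.01, 3.94 and 3.89 in Huh1 control and 4.77, 4.71 and 4.73 after DSF, a rise of 0.79 ± 0.07 (adjusted p = 4.5e-07). In Huh7 it read 2.62, 2.66 and 2.75 in control and 3.17, 3.03 and 3.06 after DSF, a rise of 0.41 ± 0.07 (adjusted p = 1.7e-04). The other H2B genes called higher in both lines were H2BC4 (0.60 and 0.26), H2BC5 (0.64 and 0.19), H2BC9 (0.65 and 0.19), H2BC10 (0.58 and 0.22), H2BC17 (0.76 and 0.19) and H2BC26 (0.45 and 0.38). With the slide as a block the Huh7 differences of H2BC9, H2BC17 and H2BC26 were 0.22, 0.0939 and 0.26 and not called (adjusted p = 0.10, 0.47 and 0.41). For H2BC26 the Huh1 groups overlapped, with -5.02, -4.74 and -5.30 in control and -4.46, -4.81 and -4.45 after DSF. H2BC6 was the other H2B gene besides H2BC7 that was called lower in Huh1, at -0.73 (adjusted p = 0.0014).

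For some genes different probes disagreed. The brightest probe of H2BC21, a gene that also gives polyadenylated mRNA, was not called after DSF in either line (-0.30 and -0.06). A second, dimmer H2BC21 probe rose by 1.70 ± 0.27 in Huh1 and was at least 5.43-fold higher after DSF in Huh7, where control was not well above background (adjusted p = 5.9e-07). A second H2BC18 probe was at least 7.43-fold higher after DSF in Huh1 and at least 2.47-fold higher in Huh7, while the brightest H2BC18 probe rose by 0.37 in Huh1 and read 0.07 in Huh7. After 5-FU in Huh1 that second H2BC18 probe was at least 2.71-fold higher, and the brightest probe fell by 0.60. For H2AC17 the brightest probe rose by 0.43 and a second one fell by 0.50 after DSF in Huh1, and for H4C1 the values were -0.44 and 0.99. The H3C10 probes read -0.56 and 0.14 (Huh1) and -0.11 and 0.36 (Huh7, the second called higher). A second H2BC12 probe rose by 0.62 in Huh1 and read 0.10 in Huh7, not called. Where these probes lie on their transcripts was not analysed here.

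The linker genes divided after DSF. H1-2, the linker subtype with the broadest expression, read 4.61, 4.58 and 4.56 in Huh1 control and 5.85, 5.82 and 5.90 after DSF, a rise of 1.28 ± 0.07 (adjusted p = 6.9e-09). In Huh7 it read 4.09, 4.04 and 4.09 in control and 4.55, 4.43 and 4.40 after DSF, a rise of 0.39 ± 0.07 (adjusted p = 4.2e-04). H1-5, a linker subtype tied to dividing cells, read 2.18, 2.17 and 2.12 in Huh1 control and 1.12, 1.04 and 1.02 after DSF, a difference of -1.10 ± 0.11 (adjusted p = 3.1e-06). In Huh7 its difference was -0.16 and not called. The DSF effects on both genes differed between the lines, by -0.89 for H1-2 and 0.94 for H1-5 (Huh7 minus Huh1, adjusted p = 1.1e-05 and 4.0e-04). H1-1 fell by 0.92 in Huh1 and by 0.27 in Huh7, and H1-4 fell by 0.21 and 0.16, and with the slide as a block the Huh7 differences were -0.19 and -0.24 and not called (adjusted p = 0.16 and 0.052). H1-3 was at 0.23 in Huh1 (adjusted p = 0.044), and was not called without DSF replicate 1, 2 or 3 (adjusted p = 0.073, 0.13 and 0.077).

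H1-10 lies outside the clusters and is made apart from replication. It read 0.47, 0.23 and 0.21 in Huh1 control and -0.25, -0.28 and -0.12 after DSF, a fall of 0.52 on the log2 scale (adjusted p = 0.0057). The groups did not overlap. Its Huh7 difference was -0.19 and not called (adjusted p = 0.27).

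**Figure D3:**
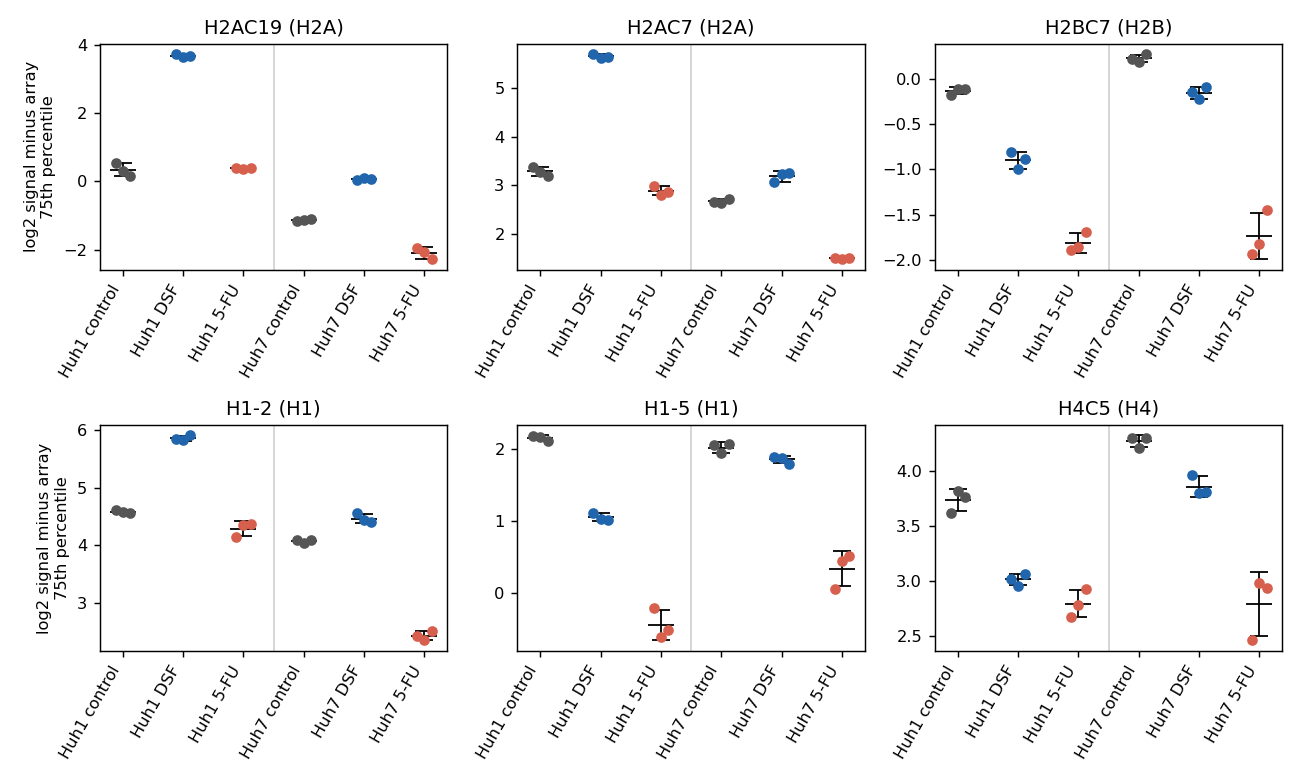
Log2 signal minus the 75th percentile of the array (vertical axis) of 6 histone genes on the 3 arrays of each group (horizontal axis); the bar and whiskers are the mean and SD of 3 arrays. H2AC19, H2AC7 and H1-2 lay above control after DSF in both lines, and H2BC7 and H4C5 below it, on all 3 arrays of the group. After 5-FU H2AC19 in Huh1 was at control level within the spread of its arrays, and the other values shown lay below control on this scale.

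Among H3 genes, H3C3 read 4.21, 4.17 and 4.14 in Huh1 control and 4.90, 4.81 and 4.90 after DSF, a rise of 0.70 ± 0.06 (adjusted p = 7.3e-07), and rose by 0.42 in Huh7 (adjusted p = 7.0e-05). H3C13 rose by 0.29 in both lines, and with the slide as a block its Huh7 difference was 0.17 and not called (adjusted p = 0.081). The 3 H3 genes called higher were the same in both lines: H3C3, H3C13 and H3-4, a testis-linked H3 gene of cluster 3 that was at 0.34 in Huh1 and 0.37 in Huh7. The H3-4 probe was bright, at 6.05, 6.02 and 5.99 in Huh1 control and 5.49, 5.54 and 5.53 in Huh7 control. Whether it took up signal from paralogs was not tested. H3C2 read 4.42, 4.55 and 4.45 in Huh1 control and 3.70, 3.65 and 3.70 after DSF, a difference of -0.79 ± 0.07 (adjusted p = 7.2e-07), and it was -0.11 in Huh7 and not called.

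The H4 genes encode an identical or near-identical protein. H4C5, shown above without any of the searched motifs in its window, read 3.62, 3.82 and 3.77 in Huh1 control and 3.02, 2.96 and 3.06 after DSF, a difference of -0.72 ± 0.12 (adjusted p = 1.7e-04). In Huh7 it read 4.30, 4.21 and 4.31 in control and 3.97, 3.80 and 3.81 after DSF, a difference of -0.41 (adjusted p = 0.010), or -0.30 with the slide as a block (adjusted p = 0.22). H4C4 differed by -0.75 in Huh1 (adjusted p = 0.019), H4C12 by -0.47 and H4C9 by -0.47. Over the 13 tested H4 genes the Huh1 differences ran from -0.75 to -0.17, so that all lay below 0 while 5 were not called. The DSF effect did not pass the test for a difference between the lines in any H4 gene. These H4 calls rest on a spread shared over all groups, including Huh7 5-FU replicate 1. That array was the lowest of its group for every tested H4 gene, as for H4C4 with 0.68 against 1.90 and 1.82. Without it 16 histone genes instead of 10 were called lower after DSF in Huh7, so a missing H4 call is no sign of an absent change.

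Over all 67 genes the DSF effect was called larger in Huh7 for 12 (21.1% of all tested probes) and smaller for 24 (19.2%), counting signed differences of Huh7 minus Huh1. The median was 0.09. Of 18 H2B genes 13 had the lower value in Huh7 and 2 the higher, and of 15 H2A genes 8 and 3. With the slide as a block the split was 8 larger and 22 smaller, and with spike-in scaling 1 and 27 with a median of -0.22.

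After 5-FU the histone genes were lower than in control relative to the rest of the array, in both lines and in every class. In Huh1 63 of 67 genes were called lower (26% of all tested probes) and 0 higher (22.2%), with a median of -0.73 against -0.03 over all tested probes. In Huh7 61 of 67 were lower (29.7%) and 0 higher (27.3%), with a median of -1.16 against -0.05. Of these, 2 genes in Huh1, H2AC25 and H2BC1, were not well above background in either group, so that no fold is given for them. Per array, the median over the histone genes was 2.10, 2.17 and 2.12 in Huh1 control and 1.28, 1.43 and 1.41 after 5-FU, and in Huh7 2.38, 2.38 and 2.38 in control and 0.90, 1.25 and 1.21 after 5-FU. The groups did not overlap.

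The scale matters for this result. Relative to the 7 spike-in probes, the 75th percentile of the 5-FU arrays exceeded that of control by 0.83 (Huh1) and 0.98 (Huh7), as opposed to 0.13 and -0.18 on DSF arrays. The DSF shifts are means over arrays of different slides. In Huh1 the control mean was -3.26, and DSF read -3.23 and -3.19 on the main slide and -2.94 off it. In Huh7 the control mean was -3.19, and DSF read -3.13 on the main slide and -3.48 and -3.48 off it. On the spike-in scale the histone median after 5-FU was 0.10 in Huh1 and -0.17 in Huh7, while the median over all tested probes was 0.79 and 0.94, so that the histone genes lay 0.70 and 1.11 below the rest of the array. The calls on that scale were 13 higher and 15 lower for Huh1, and for Huh7 9 higher and 24 lower. Statements on falls after 5-FU below are therefore relative to the rest of the array, and the amount of histone mRNA per spike-in was not called lower for most of these genes. The source of this shift was not tested.

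**Figure D4:**
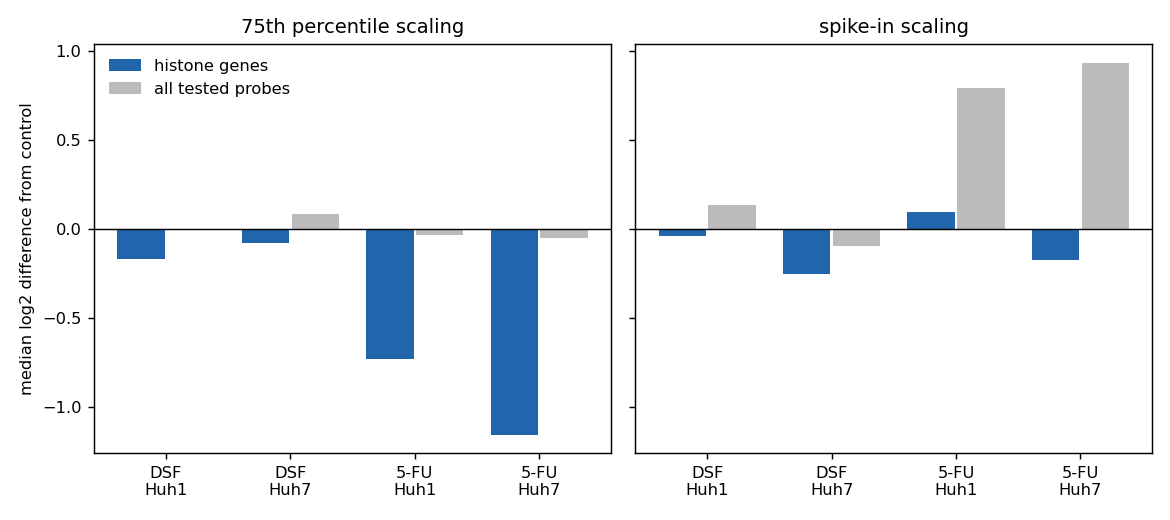
Median log2 difference from control (vertical axis) over the histone genes and over all tested probes, for each drug and line (horizontal axis), with arrays scaled on their 75th percentile or on 7 spike-in probes. After 5-FU the histone median lay below the median of all probes on both scales, at -0.73 against -0.03 in Huh1 with the first and 0.10 against 0.79 with the second.

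By class, 5-FU called lower 6 of 8 H1 genes in Huh1 and 7 in Huh7, 13 and 15 of 15 H2A, 18 and 16 of 18 H2B, 13 and 10 of 13 H3, and 13 and 13 of 13 H4 genes. The H1 median was -0.75 in Huh1 and -1.66 in Huh7, and the H4 median -0.82 and -1.39. Every tested H4 gene read lowest on replicate 1 among the Huh7 5-FU arrays, so that this array weighs on the H4 median in Huh7. H2B had the smallest median in both lines, -0.60 and -0.99. On the spike-in scale the class medians ran from 0.0059 to 0.23 in Huh1 and from -0.68 to -0.0019 in Huh7, with H1 and H4 (-0.41) lowest in Huh7.

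The linker genes held the largest changes after 5-FU. H1-5 read 2.18, 2.17 and 2.12 in Huh1 control and -0.20, -0.61 and -0.51 after 5-FU, a difference of -2.60 ± 0.11 or 6.07-fold (adjusted p = 4.6e-09). In Huh7 it read 2.06, 1.94 and 2.07 in control and 0.06, 0.44 and 0.51 after 5-FU, a difference of -1.68 ± 0.11 (adjusted p = 2.0e-08). H1-3 fell more in Huh7: it differed by -1.0 ± 0.09 in Huh1, where it read 0.61, 0.45 and 0.46 after 5-FU, and by -2.59 ± 0.09 in Huh7, where it read -0.14, -0.56 and -0.39. H1-2 differed by -0.29 in Huh1 and by -1.64 in Huh7, where it read 4.09, 4.04 and 4.09 in control and 2.43, 2.35 and 2.51 after 5-FU. The differences between the lines were -1.59 for H1-3, -1.35 for H1-2 and 0.92 for H1-5 (Huh7 minus Huh1, adjusted p = 5.8e-07, 3.3e-07 and 5.0e-04). H1-2 in Huh1 was at 0.54 on the spike-in scale. H1-4 differed by -1.33 and -1.79, and H1-10 by -0.99 and -1.78.

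Among core histones H2BC6, H2BC7 and H2AC13 had the largest mean falls over both lines, relative to the array. H2BC6 read 0.62, 0.25 and 0.21 in Huh1 control and -1.81, -2.16 and -2.02 after 5-FU, a difference of -2.35 ± 0.15 (adjusted p = 7.1e-08), with -1.78 in Huh7. H2BC7 differed by -1.68 and -1.97. H2AC13 read 1.39, 1.45 and 1.35 in Huh1 control and -0.62, -0.79 and -0.82 after 5-FU, a difference of -2.14 ± 0.07 (adjusted p = 8.0e-10), with -1.55 in Huh7. H2AC6, which rose after DSF in Huh1, differed by -1.25 and -1.76. H3C7 differed by -1.23 and -1.54 and H3C10 by -1.22 and -1.53, and H4C11 by -1.21 and -1.63. H4C16, the gene of cluster 4, differed by -1.50 and -1.25, with -6.30, -5.23 and -5.13 on the Huh1 5-FU arrays. H4C4 read 0.68, 1.90 and 1.82 after 5-FU in Huh7, where replicate 1 lay apart, and differed by -1.68. The low replicate 1 was not particular to H4C4: of the Huh7 5-FU arrays it read lowest for every tested H4 gene. H4C3, for example, read 6.47, 7.40 and 7.29.

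Some genes stood out by a small change. H2AC19 was at 0.05 after 5-FU in Huh1 (adjusted p = 0.71), where its arrays read 0.40, 0.35 and 0.40, and at -0.97 in Huh7. H2BC12 was at -0.41 in Huh1 and at 0.01 in Huh7 (adjusted p = 0.87), while a second H2BC12 probe was at -0.65 and -0.88, and the mean over both probes was -0.43 in Huh7. H3C3 was at -0.51 and at -0.14, the latter not called. These genes were among those that rose after DSF in both lines. Both drugs were set against the same control arrays, so the values are given side by side and no relation between them is drawn.

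In the 5-FU effect 7 genes had the higher value in Huh7 (18.8% of all tested probes) and 34 the lower (17.8%), with a median of -0.36 against -0.02 over all tested probes. This became 4 higher and 12 lower on the spike-in scale. Of 13 H4 genes 8 were lower in Huh7, and of 8 H1 genes 6.

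Set against 5-FU, DSF left most histone genes higher. In Huh1 56 of 67 were called higher (28.7%) and 1 lower (20.6%), H1-1, with a median of 0.86, and in Huh7 63 were higher (35.6%) and 0 lower (25%), with a median of 1.13. The medians over all tested probes were 0.08 and 0.12. With spike-in scaling the split was 30 higher to 13 lower (Huh1) and 14 higher to 16 lower (Huh7), so that the direction of this comparison depended on the scale.

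The untreated lines differed at the histone genes about as often as at other probes: 21 of 67 were higher in Huh7 (34.5% of all tested probes) and 21 lower (36.2%). H2AC25 and H2BC26, a head-to-head pair of cluster 3, were higher in Huh7, H2AC25 at least 5.36-fold (adjusted p = 4.8e-10) and H2BC26 by 2.89. H1-1 read 5.25, 5.46 and 5.39 in Huh1 and 3.01, 3.01 and 3.14 in Huh7, a difference of -2.31. H4 genes were higher in Huh7 in 7 of 13 cases and lower in 0. All 3 Huh1 control arrays lay on 1 slide and all 3 Huh7 control arrays on another, so that line and slide cannot be told apart among the controls. The lines shared a slide only through 1 Huh1 DSF array, on which a correction for slide rests. With the slide as a block 10 genes were higher and 13 lower.

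Factors that act on histone genes were followed in the same fit. Their counts stand beside the shares of all tested probes given above, which for DSF were 23.9% higher and 20.3% lower (Huh1) with 27.3% and 19.4% (Huh7), and for 5-FU 22.2% and 26% (Huh1) with 27.3% and 29.7% (Huh7). Of 8 genes of histone gene control 5-FU left 6 higher with 1 lower (Huh1), and 7 with 1 (Huh7). SLBP, which binds the stem-loop, read 3.07, 3.03 and 2.99 in Huh1 control and 3.44, 3.36 and 3.39 after 5-FU, a rise of 0.37 (adjusted p = 0.0022). In Huh7 SLBP read 3.54, 3.56 and 3.58 in control and 4.64, 4.53 and 4.33 after 5-FU, a rise of 0.94 (adjusted p = 2.8e-07). ZNF473, the U7 particle's zinc finger protein, rose by 1.64 in Huh1 and 0.66 in Huh7, and HINFP, a factor for H4 transcription, by 0.90 and 0.70. ERI1, a 3′ exonuclease of histone mRNA ends, rose by 0.28 and 1.18, CASP8AP2 (FLASH) by 0.38 and 0.45, and LSM10 by 0.30 and 0.37. NPAT was at 0.05 in Huh1, not called, and rose by 0.43 in Huh7. LSM11 differed by -0.29 and -0.79, which became 0.53 and 0.19 on the spike-in scale, where 8 and 7 of the 8 genes were called higher.

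After DSF the same list had 2 higher with 2 lower (Huh1) and 5 higher with 2 lower (Huh7), and on the spike-in scale 2 with 0, and 0 with 2. HINFP rose by 0.79 and 0.36 and ZNF473 by 0.53 and 0.50. NPAT differed by -0.26 in Huh1 and 0.23 in Huh7, LSM10 by -0.22 and 0.37, and all 4 values were called. SLBP was at 0.09 in Huh1, not called, and rose by 0.45 in Huh7, LSM11 was at -0.08 and -0.75, CASP8AP2 at -0.15 and -0.34, and ERI1 at -0.11 and -0.17.

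**Figure D5:**
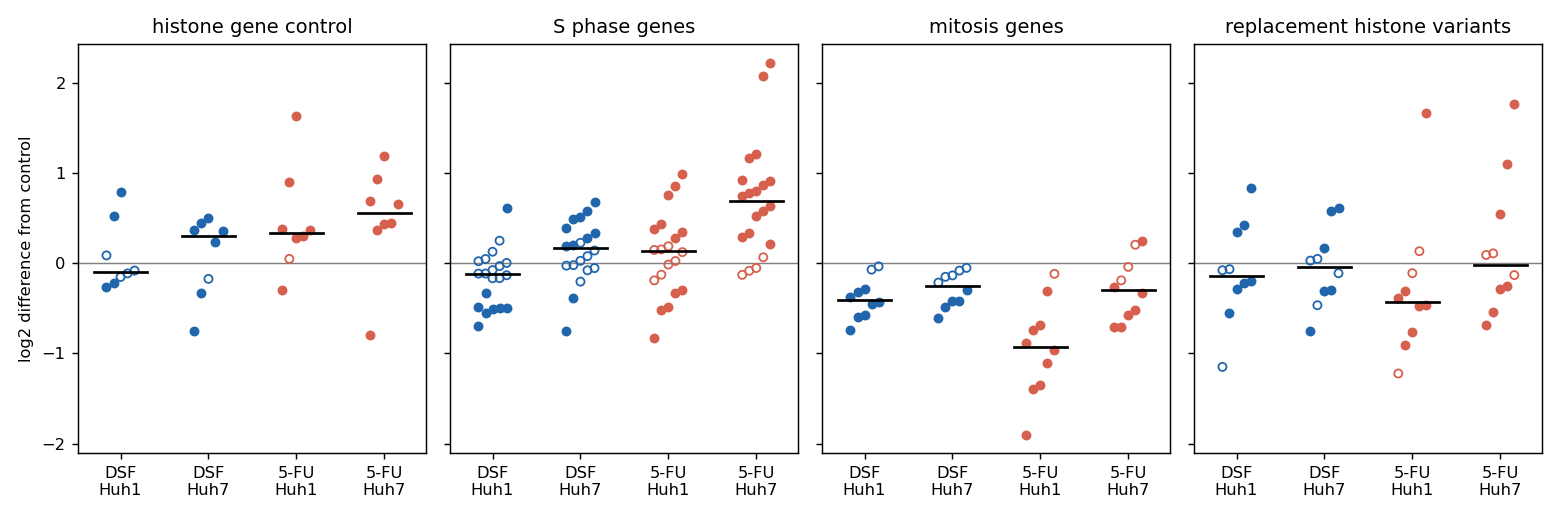
Log2 difference from control (vertical axis) for the genes of 4 lists by drug and line (horizontal axis), on the 75th percentile scale; filled points are called, open points are not, and bars are list medians. After 5-FU in Huh7 the S phase genes had a median of 0.69 with 16 of 20 called higher, and the mitosis genes a median of -0.30; on the spike-in scale both medians were above 0, at 1.67 and 0.69.

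The S phase genes, with which histone genes are normally made in step, went the other way from them after 5-FU in Huh7: 16 of 20 were called higher (27.3% of all tested probes) and 0 lower (29.7%), with a median of 0.69. In Huh1 7 were higher (22.2%) and 5 lower (26%), near the shares of all tested probes, with a median of 0.14. On the spike-in scale 18 of 20 were higher in Huh1 and 20 in Huh7. CCNE2 (cyclin E2) rose by 0.99 and 2.23, CDC6, a licensing factor of replication origins, by 0.86 and 2.08, and CDT1, its partner, by 0.76 and 0.78. Of the 10 mitosis genes 9 were lower (26%) and 0 higher (22.2%) in Huh1, with a median of -0.93, and 6 were lower (29.7%) and 1 higher (27.3%) in Huh7. On the spike-in scale 3 were lower and 2 higher in Huh1, and 0 lower and 8 higher in Huh7. PLK1, a mitotic kinase, differed by -1.90 and -0.70, CCNB1 by -1.35 and -0.33 and CCNB2 by -1.39 and -0.52.

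After DSF 7 of 20 S phase genes were lower (20.3% of all tested probes) and 1 higher (23.9%) in Huh1, or 2 and 1 on the spike-in scale. In Huh7 9 were higher (27.3%) and 2 lower (19.4%), which became 1 higher and 3 lower on that scale. CCNE1 (cyclin E1) rose by 0.61 and 0.49. Mitosis genes were called lower in 8 of 10 cases in Huh1 (20.3% of all tested probes) and in 5 of 10 in Huh7 (19.4%), with 0 higher in either. On the spike-in scale 3 and 5 were lower, and with the slide as a block 8 and 3. TOP2A differed by -0.60 and -0.42, AURKB by -0.28 and -0.60, and CCNB2 by -0.38 and -0.48.

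Replacement variants, most of which are also made outside S phase, did not move as 1 group. Under DSF 3 of 10 were higher with 4 lower (Huh1), and 3 with 3 (Huh7), which became 2 with 1 and 2 with 3 on the spike-in scale. All tested probes were higher in 23.9% and lower in 20.3% of cases (Huh1), and in 27.3% and 19.4% (Huh7). H3-3B, which encodes H3.3, rose by 0.84 and 0.61, H2AX, the H2A marked at DNA breaks, by 0.34 and 0.58, and CENPA, the centromeric H3, differed by -0.56 and -0.30. Under 5-FU 1 was higher with 6 lower (Huh1), and 3 with 4 (Huh7). MACROH2A2 rose by 1.67 and 1.1, H2AZ2 differed by -0.90 and -0.69, and CENPA by -0.77 and -0.54. With spike-in scaling 7 and 9 of the 10 were higher and 0 lower after 5-FU.

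Of 19 genes of histone mRNA cleavage and decay DSF left 3 higher with 5 lower (Huh1) and 8 higher with 3 lower (Huh7), and 5-FU 2 with 7, and 6 with 8. On the spike-in scale the DSF counts were 3 with 2, and 0 with 3. DIS3L2, an exonuclease for uridylated RNA, differed by -0.99 and -2.26 after 5-FU, CPSF1 by -0.78 and -0.27, and TUT4, a uridylyl transferase, by -0.32 and -0.70. TUT4 was also lower after DSF, by -0.52 and -0.21. Of 20 histone chaperone and assembly genes DSF left 1 higher with 12 lower (Huh1) and 7 higher with 4 lower (Huh7), and 5-FU 3 with 8, and 10 with 7. The 12 chaperone genes lower after DSF in Huh1 stand beside 20.3% of all tested probes, and on the spike-in scale the DSF counts were 1 with 3 (Huh1) and 0 with 4 (Huh7). DAXX, an H3.3 chaperone, was higher in all 4 comparisons (0.32 and 0.51 after DSF, 0.36 and 0.80 after 5-FU). MMS22L and HJURP were lower after DSF (-0.52 and -0.46, -0.39 and -0.18), and IPO4, an importer of H3 and H4, and HIRA were lower after 5-FU (-1.08 and -0.70, -0.94 and -0.50). After 5-FU and spike-in scaling 17 of the 20 were higher and 0 lower in each line, and the cleavage and decay genes had 17 higher with 0 lower (Huh1) and 16 with 1 (Huh7).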

How the data were processed

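Intensity was measured on 18 one-color Agilent arrays (design on hg19), grouped by their labels into control, DSF and 5-FU for each line, 3 per group. The authors deposited spot intensity after background subtraction by Feature Extraction (10.7.1.1 in the file headers, which differs from the version in the methods), not scaled between arrays. Their deposited table of normalized intensity divides each array by its 75th percentile. Here log2 processed signals were averaged over unflagged spots, 78 of 42405 probes without one were left out, and each array's log2 75th percentile (lowest 10.1, highest 10.8) was subtracted. Between 59.9% and 71.1% of probes per array lay well above background, and 0 spots were saturated. Array number limits the precision: 3 per group.

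Genes were named from accessions through RefSeq, for 25736 probes. limma 3.58.1 (R 4.3.3) fitted 6 groups in 9 contrasts, and the script was tested on simulated data. The histone members, the lists and the alternatives were chosen with earlier results of these data known, so that list counts are descriptions. Named genes were, per class and drug, the 2 histone genes with the largest mean change over the lines among those called in either, all 18 that passed in both lines with 1 sign under each drug, H1-10, the control list, and 3 per other list and drug; others were named after values were seen. A gene of the rule and a marker are not reported here, and stay in the counts over lists. The methods describe triplicates from independent experiments. Alternatives changed scaling, background correction, filters, probe choice, slide, scan day, replicate block and arrays. Promoters came from RefSeq (GRCh38.p14), and no coordinates were set against the array design. Pseudogenes and antisense RNA matching the names were left out.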

Additional observations from a re-analysis of the deposited data

Results flagged for a closer look

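The drug effects on the named histone genes differed between the lines by the interaction term of the limma fit. Values are log2 effects, Huh7 less Huh1. For DSF the value was below 0 for H1-2 (-0.89), H2AC1 (-3.04), H2AC19 (-2.14), H2AC6 (-1.26), H2AC7 (-1.86), H2AC8 (-1.28), H2BC1 (-3.36), H2BC10 (-0.36), H2BC12 (-0.38), H2BC17 (-0.57), H2BC4 (-0.34), H2BC5 (-0.45), H2BC9 (-0.46) and H3C3 (-0.27). It was above 0 for H1-1 (0.65), H1-5 (0.94), H2AC13 (0.65), H2AC20 (0.48), H2AC4 (0.45), H2BC6 (0.81), H2BC7 (0.39), H3C10 (0.44), H3C2 (0.67) and H3C7 (0.50). H2BC1 was not well above background in either Huh7 group, so that its value is a fitted difference and no fold.

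For 5-FU the value was below 0 for H1-1 (-0.33), H1-10 (-0.79), H1-2 (-1.35), H1-3 (-1.59), H1-4 (-0.46), H2AC1 (-1.16), H2AC19 (-1.02), H2AC6 (-0.51), H2AC7 (-0.78), H2AC8 (-0.84), H2BC17 (-0.57), H2BC26 (-1.03), H2BC4 (-0.27), H2BC5 (-0.35), H2BC9 (-0.43), H3C10 (-0.32), H3C2 (-0.36), H3C7 (-0.31), H4C12 (-0.52), H4C5 (-0.54) and H4C9 (-0.68). It was above 0 for H1-5 (0.92), H2AC13 (0.59), H2AC20 (0.48), H2BC12 (0.42) and H3C3 (0.37). With the slide as a block, 8 histone genes had the higher and 22 the lower DSF effect in Huh7, and 7 and 33 the 5-FU effect.

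The pseudogene H2AC2P, left out of the histone genes by the rule on names, was also measured. It was well above background on 3 of 3 DSF and 0 of 3 control arrays in Huh1, at least 8.53-fold higher after DSF (3.09 on the log2 scale, adjusted p = 1.6e-04), and on 5 of 18 arrays in all.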

How the results depend on the processing

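Scaling mattered most. On the spike-in scale the counts and medians over the histone genes became 13 lower with a median of -0.0376 for DSF in Huh1, 2 higher with -0.25 for DSF in Huh7, 13 higher and 15 lower with 0.10 for 5-FU in Huh1, and 9 higher and 24 lower with -0.17 for 5-FU in Huh7. DSF against 5-FU became 30 higher with 13 lower (0.16) for Huh1, and 14 with 16 (-0.0302) for Huh7. The line difference of the DSF effect became 1 higher (-0.22), and that of the 5-FU effect 4 higher and 12 lower (-0.20). On that scale these log2 differences after 5-FU turned positive in Huh1: H2BC10 0.23, H3C13 0.26, H1-2 0.54, H3C3 0.32, H2BC12 0.42, H2BC9 0.25, H4C4 0.0059, H2AC7 0.43, H2AC8 0.10, H2BC17 0.36, H1-1 0.33, H2BC4 0.22, H3C2 0.0869, H2BC5 0.30, H2BC26 0.0462, TOP2A 0.0876, AURKB 0.71, CPSF1 0.049, TUT4 0.51, LSM11 0.53, H2AX 0.52, CENPA 0.0618, H3-3B 0.44, MMS22L 0.59, HJURP 0.16. In Huh7 they were H2BC10 0.17, H3C13 0.46, H3C3 0.85, H2AC19 0.0140, H1-1 0.16, H2BC4 0.11, H2BC5 0.11, PLK1 0.28, TOP2A 0.72, CCNB1 0.65, H2AZ2 0.30, HIRA 0.48, IPO4 0.28, CPSF1 0.72, TUT4 0.28, LSM11 0.19, CCNB2 0.46, CENPA 0.45, MMS22L 0.59, HJURP 0.59.

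With median scaling the median was -0.34 for DSF in Huh1, 0.71 for DSF against 5-FU in Huh1, -0.17 for the controls (11 higher) and 0.25 for the line difference of the DSF effect. With quantile normalization 17 genes were lower after DSF in Huh7 and 1 higher after 5-FU in Huh7, and the control median was 0.11. With normexp on median signals, chosen after seeing the data because the mean signals of the planned setting were not analysed here, the 5-FU median in Huh1 was -0.63. With the slide as a block DSF in Huh7 gave 9 higher and 2 lower and the controls 10 and 13, with the scan day as a block 9 and 3, and with only the arrays of the main slide, chosen after seeing the data, 6 and 0. With the mean over probes the DSF median in Huh1 was -0.0318 and 1 gene was higher after 5-FU in Huh1, and H3-3B (0.16) after 5-FU in Huh1, H2BC12 (-0.43) and MMS22L (0.042) after 5-FU in Huh7 changed sign. The causes were not tested.

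With 1 array left out, 7 to 16 genes were lower after DSF in Huh7 (16 without Huh7 5-FU replicate 1) and 10 to 16 higher, for DSF in Huh1 there were 27 to 30 higher with 21 to 31 lower, and 59 to 63 and 61 to 63 lower after 5-FU. With the replicate block DSF gave 28 higher with 26 lower (Huh1) and 13 with 10 (Huh7), and 63 and 61 lower after 5-FU. Same-numbered arrays did not deviate together, with 45 correlations from -0.0932 to 0.1032, so the numbers were not taken to pair them. With 3 arrays per group and 2 of 3 Huh7 DSF arrays on a slide of their own, small DSF changes in Huh7 are the least firm.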
